A study of Mus musculus with 8 samples.

Results

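The 38 genes described here code for the receptors, transcription factors, RNA sensors and antiviral proteins of the interferon response and for the machinery that loads and displays peptides on MHC class I. They were chosen as a list of gene symbols from a table of 18102 genes measured by RNA sequencing. The list was drawn up by gene function, with earlier results of these data known. All 38 genes were in the table, and 35 had a mean of at least 10 normalised counts over the 8 libraries and were tested. The 3 below that level were Psmb8, Psmb9 and Mx1. The cells were NMuMG, an epithelial line from normal mouse mammary gland that is widely used to study the response to TGFβ.

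The 8 libraries formed 4 groups of 2: KO-labelled cells given TGFβ, KO-labelled cells given SB505124, WT cells given TGFβ and WT cells given SB505124. KO and WT refer to RREB1, a zinc finger transcription factor that binds RAS-responsive DNA elements. All cells were first starved of serum for 6 h. TGFβ was then used at 100 pM for 1.5 h, whereas SB505124, an inhibitor of the type I receptors for TGFβ and activin, was used at 2.5 µM for 6 h. No untreated group was analysed here, so effects of the ligand, of the inhibitor and of the unequal times cannot be told apart. The KO columns all carry one code, KO1, and if this stands for 1 clone, genotype and clone cannot be told apart either. Separate cultures for the replicates are not stated, so each p-value reflects only how these samples spread, which may be technical.

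Interferons are secreted proteins that warn cells of infection. Type I interferons bind IFNAR1 and IFNAR2, and interferon gamma binds IFNGR1 and IFNGR2, and both receptors signal through JAK kinases to STAT transcription factors. STAT2 and IRF9 are parts of the complex that binds the interferon-stimulated response element (ISRE), while a STAT dimer binds the gamma-activated site (GAS). Epithelial cells use the same pathway to raise RNA sensors, antiviral proteins and the class I molecules that show peptides to cytotoxic T cells. Many of these genes also have a basal level without added interferon, and none was added here.

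The DNA before the transcription starts of these genes was searched for strict forms of the ISRE and the GAS. RefSeq promoter windows on GRCm38.p6 were found for 33 of the 38 genes, and the 250 bases before the start were searched on both strands. The ISRE was searched as GAAA, any 2 bases and GAAA again (TTTC, any 2 bases and TTTC on the other strand), and 8 of the 33 genes held it (24.2%), against 936 of 27025 genes with a window (3.46%). The GAS was searched as TTCNNNGAA, and 7 of the 33 held it (21.2%), against 8.13% of all genes: Irf1, Irf2, Ifit2, Isg20, Bst2, Psmb8 and Ifnar2. In Bst2 the GAS match overlaps an ISRE match. A match is a description of these letters and not a measured binding site. The stretches with an ISRE match are given because the same letters stand before genes that differed in direction; capitals mark the matches.
Stat2 (chr10:128270261-128270300, plus strand): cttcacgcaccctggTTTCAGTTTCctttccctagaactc
Irf2 (chr8:46739495-46739528, plus strand): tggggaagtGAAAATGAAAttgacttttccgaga
Ifit1 (chr19:34640770-34640828, plus strand): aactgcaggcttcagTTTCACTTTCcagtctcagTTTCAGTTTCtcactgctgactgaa
Ifit3 (chr19:34583358-34583431, plus strand): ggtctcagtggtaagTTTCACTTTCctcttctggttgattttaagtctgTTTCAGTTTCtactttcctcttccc
Isg15 (chr4:156200860-156200911, minus strand): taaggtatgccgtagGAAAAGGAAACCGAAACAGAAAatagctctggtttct
Rsad2 (chr12:26456548-26456587, minus strand): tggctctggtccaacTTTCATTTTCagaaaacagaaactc
Bst2 (chr8:71537572-71537617, minus strand): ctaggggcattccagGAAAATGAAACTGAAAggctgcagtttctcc
B2m (chr2:122147533-122147572, plus strand): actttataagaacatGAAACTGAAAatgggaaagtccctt

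In Isg15 and Bst2 several matches overlap and run together, and Ifit1 and Ifit3 hold a pair of separate matches. Of the 8 genes, Ifit1, Isg15, Rsad2 and Bst2 were lower in KO-labelled cells under both treatments, and Irf2 was higher under both. Stat2 was higher under TGFβ. Ifit3 and B2m passed in neither genotype comparison. Of all tested genes 23.2% were lower under both treatments and 25.2% higher under both, and nothing particular to genes with a match is read from these directions. Under TGFβ, the values of Ifit1, Isg15, Rsad2, Bst2 and Stat2 were lost in some other fits, as given below.

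The class I genes H2-K1 and H2-D1, which were both lower in KO-labelled cells, held no ISRE match in these letters. Looser forms of the ISRE were not searched, so no lack of an ISRE is read for H2-K1 and H2-D1. Their promoters share another stretch, shown because the same letters stand before both genes; capitals mark the longest run in both windows that equals its own reverse complement with the middle base left free, which has the letters of a kB-type element and was picked after the windows had been read.
H2-K1 (chr17:34000377-34000489, minus strand): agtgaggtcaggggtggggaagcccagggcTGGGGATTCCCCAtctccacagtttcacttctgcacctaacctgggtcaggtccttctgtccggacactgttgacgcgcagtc
H2-D1 (chr17:35262892-35263004, plus strand): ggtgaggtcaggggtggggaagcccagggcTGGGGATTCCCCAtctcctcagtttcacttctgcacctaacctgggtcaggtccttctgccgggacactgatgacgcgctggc
Of these 113 bases, 106 are equal in both genes (93.8%). After the capitals both hold tttcacttct, which the strict ISRE letters do not match. The letters in capitals occur, on either strand, in the windows of 3 of 27025 genes (0.0111%), counting H2-K1 and H2-D1. As this exact run was picked from the windows of H2-K1 and H2-D1, its share cannot be set beside those of the ISRE and the GAS.

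Some facts of the whole table bear on what follows. Read totals ran from 25144204 to 32143113 and size factors from 0.875 to 1.16. Reads of the ribosomal RNA precursor Rn45s made up 0.485 to 0.509% of reads in KO-labelled libraries and 0.614 to 1.06% in WT libraries, so this share moved with genotype. Rreb1 itself had 2481 and 2241 normalised counts in KO TGFβ, 1327 and 1343 in KO SB505124, 1959 and 1769 in WT TGFβ and 1055 and 1033 in WT SB505124 libraries, so the transcript was not lower in the libraries labelled KO, and since the deleted part is not given this count does not check the label. Of 7 epithelial genes 5 had a mean of at least 10. Krt8, Krt18, Krt19, Cdh1 and Elf3 were read in all libraries, but Cldn7 was at most 3.72. Epcam was at 0 in all 4 KO-labelled libraries and 4.01 to 36.6 in WT. Cdh1 was at 22443 to 26362 normalised counts in KO-labelled and 13123 to 17133 in WT libraries. The epithelial list summed to 270480 and 273390 in KO TGFβ and 185960 and 199550 in KO SB505124 libraries. In WT libraries it summed to 235410 and 236650 with TGFβ and 173180 and 182320 with SB505124. Its sum thus moved with treatment and, within a treatment, with genotype. Leukocyte genes with a mean of at least 10 numbered 4 of 11. Their list summed to 214 to 269 in all libraries, with the pan-leukocyte gene Ptprc at 1.05 to 11.6. Cd68 gave most of this sum, at 179 to 202 in KO-labelled and 129 to 157 in WT libraries. Csf1r was at 7.77 to 13.5 in KO-labelled and 24.031 to 53.7 in WT libraries. Cd68 and Csf1r thus moved with genotype in opposite directions, which the sum does not show. Fcer1g was lower in every KO-labelled library than in any WT one, and Itgam overlapped. The 3 plasmacytoid dendritic cell genes, of which 1 had a mean of at least 10, summed to 478 to 602 in KO-labelled and 342 to 442 in WT libraries, nearly all Tcf4, with Irf8 at 0.931 to 2.00. The 3 endothelial genes, of which 1 had such a mean, summed to 1.86 to 12.5 in KO-labelled and 14.2 to 38.9 in WT libraries, with Pecam1 at most 1.93. Both lists moved with genotype. The fibroblast list summed to 384 and 379 in KO TGFβ, 46.5 and 61.3 in KO SB505124, 669 and 513 in WT TGFβ and 164 and 161 in WT SB505124 libraries, so it moved with treatment and genotype. Of its 6 genes 3 had a mean of at least 10: Col1a1 (11.2 to 498), Pdgfra and Dcn, while Lum and Pdgfrb were at or near 0. The part of Rn45s and of these cell type lists in the results was not tested. In bulk RNA, fewer cells of a type and less RNA per cell cannot be told apart.

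Levels differed widely between the genes. Per kilobase of exon, the mean over the 8 libraries was 12412 normalised counts for B2m, the light chain of all class I molecules, followed by 1598 for Ifngr1 and 734 for Tapbp. At the low end of the tested genes, Rsad2 averaged 2.81, Oasl2 3.76 and Ifit1 7.54 per kilobase. Such low genes rest on few reads, which limits what a fold change can show: the 2 KO SB505124 libraries together held 7 reads of Isg15. With the pseudocount of 1, the log2 fold changes of these genes are understated.

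The genotype comparison asks how KO-labelled cells differed from WT cells under the same treatment. Under TGFβ, 26 of the 35 genes passed at an adjusted p under 0.05 (limma, adjusted over all 12498 genes tested), where 62.9% of all tested genes passed. Of them 9 were higher in KO-labelled cells and 17 lower, where 32.7% of all genes were higher and 30.2% lower. Under SB505124, 22 of 35 passed, 6 higher and 16 lower, where 56.9% of all genes passed, 29.2% higher and 27.7% lower. Passing was common among all genes in both comparisons, and nothing particular to these genes is read from the counts. Per-library values are given below, and ± is the SE of the log2 fold change from the fit, with 2 libraries a group. The median log2 fold change of the 35 genes was -0.19 under TGFβ and -0.14 under SB505124, beside 0.01 for all tested genes in each. The lower side held class I heavy chains, peptide loading genes, all 3 RNA helicase sensors, Irf7, Irf9 and most of the antiviral effectors that passed. The higher side held both interferon gamma receptor chains, Irf2, Ifit2 and Cmpk2. These 2 comparisons share no library: 15 genes were lower in both (42.9% of the 35, against 23.2% of all tested genes) and 6 were higher in both (17.1%, against 25.2%). None passed in opposite directions, where 0.224% of all genes did, and 8 passed in neither (22.9%, against 28.8%).

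**Figure D1:**
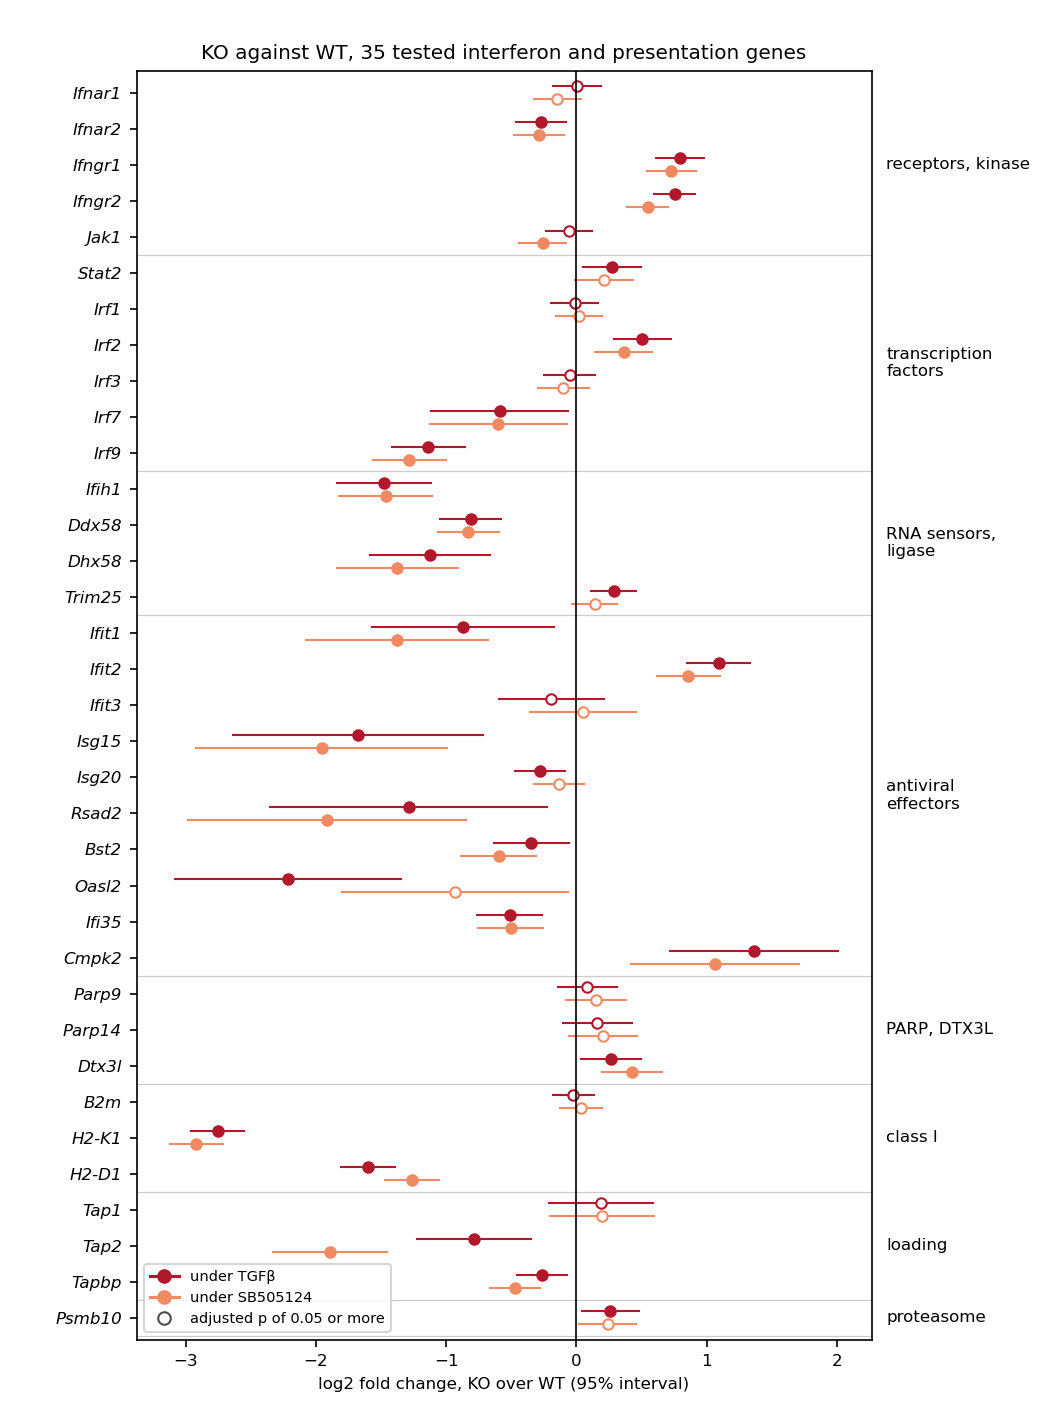
Log2 fold change of KO over WT (x axis) for the 35 tested genes (y axis, grouped by role), with 95% intervals from the fit, under TGFβ and under SB505124; filled points passed at an adjusted p under 0.05. H2-K1 lies farthest to the left at -2.76 and -2.92, while Cmpk2, Ifit2, Ifngr1 and Ifngr2 lie to the right of 0 under both treatments.

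Of the 35 genes, H2-K1 had the largest difference in both comparisons. H2-K1, a class I heavy chain, had 275 and 261 normalised counts in KO TGFβ, 194 and 204 in KO SB505124, 1879 and 1759 in WT TGFβ and 1559 and 1462 in WT SB505124 libraries. All 4 KO-labelled libraries lay far below all 4 WT libraries, and the KO mean was 6.78-fold lower than the WT mean under TGFβ and 7.6-fold lower under SB505124. Its log2 fold change was -2.76 ± 0.10 (adjusted p = 2.34e-14) under TGFβ and -2.92 ± 0.10 (adjusted p = 1.12e-14) under SB505124. H2-D1, another heavy chain, had 392 and 418 normalised counts in KO TGFβ, 322 and 363 in KO SB505124, 1242 and 1214 in WT TGFβ and 843 and 803 in WT SB505124 libraries. Again no KO-labelled library reached a WT one, with log2 fold changes of -1.60 ± 0.10 (adjusted p = 1.03e-10) and -1.27 ± 0.10 (adjusted p = 2.93e-09). B2m, by contrast, had 11502 and 11711 normalised counts in KO TGFβ, 9558 and 9974 in KO SB505124, 11713 and 11869 in WT TGFβ and 9675 and 9390.3 in WT SB505124 libraries, and the KO mean was 0.984 times the WT mean under TGFβ and 1.02 times under SB505124. The log2 fold change of B2m was -0.02 ± 0.08 (adjusted p = 0.81) under TGFβ and 0.03 ± 0.08 (adjusted p = 0.719) under SB505124, with 95% intervals of -0.18 to 0.14 and -0.12 to 0.19. These intervals do not reach differences of the size found for either heavy chain. H2-K1 and H2-D1 have near-identical relatives in the same region, so how reads were divided among them is uncertain.

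The transporter that carries peptides into the endoplasmic reticulum has a pair of subunits, and only one of them passed. Tap2 had 55.8 and 66.6 normalised counts in KO TGFβ, 26.99 and 38.9 in KO SB505124, 111 and 102 in WT TGFβ and 125 and 121 in WT SB505124 libraries. The KO-labelled libraries lay below the WT ones under both treatments, with log2 fold changes of -0.79 ± 0.21 (adjusted p = 0.00303) under TGFβ and -1.89 ± 0.21 (adjusted p = 3.23e-07) under SB505124. Tap1, the partner subunit, ranged from 97.1 to 145 over all libraries, with log2 fold changes of 0.19 ± 0.19 (adjusted p = 0.407) and 0.20 ± 0.19 (adjusted p = 0.388). The genes lie close together on chromosome 17, with Psmb8 between them: 495 bases separate Tap1 from Psmb8 and 2072 bases Psmb8 from Tap2. Tapasin (Tapbp), which bridges the transporter to class I, had 2614 and 2667 normalised counts in KO TGFβ, 1859.5 and 2198 in KO SB505124, 3386 and 2967 in WT TGFβ and 2924 and 2701 in WT SB505124 libraries. Its log2 fold change was -0.26 ± 0.09 (adjusted p = 0.0176) under TGFβ and -0.47 ± 0.09 (adjusted p = 0.00021) under SB505124. Under TGFβ, Tapbp no longer passed without KO TGFβ replicate 1 (adjusted p = 0.0893), KO TGFβ replicate 2 (0.0543) or WT TGFβ replicate 1 (0.156), or with no variance trend (0.0815) or centring on chromosome medians (0.0513).

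Immunoproteasome subunits replace the standard catalytic subunits and change which peptides are cut. Psmb10 had 542 and 549 normalised counts in KO TGFβ, 504 and 530.3 in KO SB505124, 447 and 463 in WT TGFβ and 411 and 466 in WT SB505124 libraries, a log2 fold change of 0.26 ± 0.10 (adjusted p = 0.0346) under TGFβ and 0.24 ± 0.10 (adjusted p = 0.0551) under SB505124. The TGFβ value of Psmb10 was lost without KO TGFβ replicate 1 (adjusted p = 0.097), KO TGFβ replicate 2 (0.116), WT TGFβ replicate 1 (0.116) or WT TGFβ replicate 2 (0.0574), or with TMM scaling, edgeR, DESeq2, centring on chromosome medians or a fit of only the 2 groups (0.0516 to 0.164). Its SB505124 value, in turn, passed without WT TGFβ replicate 1 (adjusted p = 0.0497), WT TGFβ replicate 2 (0.0499) or WT SB505124 replicate 2 (0.044), and with quantile normalisation, a mean of at least 50 or a replicate block (0.0371 to 0.0484). Psmb8 and Psmb9 were too low to test: Psmb8 had 1.93 and 1.03 normalised counts in KO TGFβ, 0.931 and 4.32 in KO SB505124, 6.32 and 9.14 in WT TGFβ and 4.05 and 14.02 in WT SB505124 libraries, which are 3 and 6 reads in the KO groups and 14 and 18 in the WT groups. Psmb9 had 2.89 and 3.08 normalised counts in KO TGFβ, 5.58 and 4.32 in KO SB505124, 1.05 and 4.57 in WT TGFβ and 6.08 and 8.01 in WT SB505124 libraries. Psmb8 and Psmb9 were thus near the limit of detection in all 8 libraries, while Psmb10 was read at 411 normalised counts or more. Tap1 and Psmb9 overlap by 212 exonic bases on opposite strands, and the library kit does not mark the strand.

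**Figure D2:**
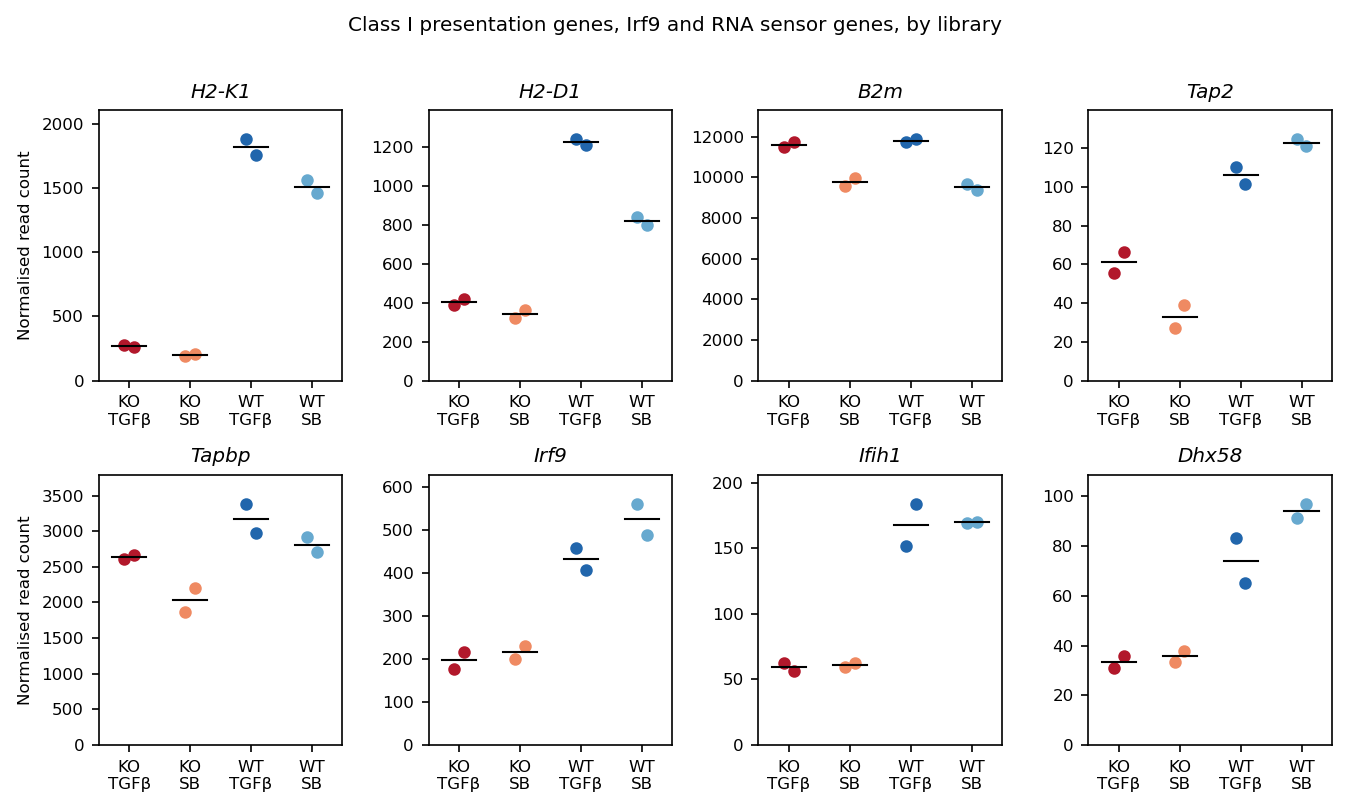
Normalised read count (y axis, from 0) of 8 genes in each of the 8 libraries, by group (x axis; SB is SB505124); points are libraries and bars the group means. H2-K1, H2-D1, Tap2, Irf9, Ifih1 and Dhx58 have every KO-labelled library below every WT one, whereas B2m has like levels in both genotypes.

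The RNA helicases IFIH1 (MDA5), DDX58 (RIG-I) and DHX58 (LGP2) sense viral RNA in the cytoplasm, and all 3 were lower in KO-labelled cells under both treatments. Ifih1 had 62.6 and 56.4 normalised counts in KO TGFβ, 59.6 and 62.2 in KO SB505124, 152 and 184 in WT TGFβ and 169 and 170.2 in WT SB505124 libraries. The groups did not overlap, and its log2 fold change was -1.48 ± 0.17 (adjusted p = 5.30e-07) under TGFβ and -1.46 ± 0.17 (adjusted p = 6.68e-07) under SB505124. Dhx58 had 30.8 and 35.9 normalised counts in KO TGFβ, 33.5 and 38.003 in KO SB505124, 83.2 and 65.1 in WT TGFβ and 91.2 and 97.1 in WT SB505124 libraries, which gave -1.12 ± 0.22 (adjusted p = 0.000224) and -1.37 ± 0.22 (adjusted p = 3.10e-05). Ddx58 had 228 and 252 normalised counts in KO TGFβ, 385 and 339 in KO SB505124, 409 and 433 in WT TGFβ and 642 and 645 in WT SB505124 libraries, which gave -0.81 ± 0.11 (adjusted p = 4.52e-06) and -0.83 ± 0.11 (adjusted p = 3.88e-06). Ddx58 lies on chromosome 4, whose tested genes as a whole were lower in KO-labelled cells, and relative to that chromosome's median it no longer passed (log2 -0.10, adjusted p = 0.463, and log2 -0.12, adjusted p = 0.352). Trim25, the ubiquitin ligase that activates RIG-I, went the other way: it had 1813 and 1699 normalised counts in KO TGFβ, 2919 and 2595 in KO SB505124, 1405 and 1469 in WT TGFβ and 2465 and 2529 in WT SB505124 libraries. It was higher in KO-labelled cells under TGFβ (0.29 ± 0.08, adjusted p = 0.00524) but not without KO TGFβ replicate 1 (adjusted p = 0.0656), and under SB505124 its value was 0.14 ± 0.08 (adjusted p = 0.157).

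Among the transcription factors, Irf9, the DNA-binding part of the ISRE-binding complex, had 176 and 217 normalised counts in KO TGFβ, 200.1 and 231 in KO SB505124, 459 and 407 in WT TGFβ and 562 and 489.6 in WT SB505124 libraries. It was lower in KO-labelled cells, at log2 -1.14 ± 0.13 (adjusted p = 6.02e-07) under TGFβ and -1.28 ± 0.13 (adjusted p = 1.45e-07) under SB505124. Irf9 lies on chromosome 14, where the median of all tested genes was -0.58 and -0.62, and it still passed relative to that median, at log2 -0.51 (adjusted p = 0.00398) and -0.64 (adjusted p = 0.000818). Irf7, which drives type I interferon genes, had 41.4 and 31.8 normalised counts in KO TGFβ, 43.7 and 43.2 in KO SB505124, 66.3 and 45.7 in WT TGFβ and 77.04 and 57.1 in WT SB505124 libraries. Its log2 fold changes were -0.59 ± 0.25 (adjusted p = 0.048) and -0.60 ± 0.25 (adjusted p = 0.049), close to the threshold. For Irf7, the TGFβ value was lost without KO TGFβ replicate 2 (adjusted p = 0.262), WT TGFβ replicate 1 (0.36), WT SB505124 replicate 1 (0.0525) or WT SB505124 replicate 2 (0.0503), or with quantile normalisation, a pseudocount of 0.5, no filter on low values, a mean of at least 50, no variance trend or DESeq2 (0.051 to 0.136). Its SB505124 value was lost without KO SB505124 replicate 1 (adjusted p = 0.114), KO SB505124 replicate 2 (0.113) or WT SB505124 replicate 1 (0.33), or with quantile normalisation, a pseudocount of 0.5, no filter on low values, a mean of at least 50, no variance trend or DESeq2 (0.0526 to 0.133). Irf2, which competes with activating IRFs at their sites, was higher in KO-labelled cells: it had 581 and 569.99 normalised counts in KO TGFβ, 922 and 807 in KO SB505124, 383 and 429 in WT TGFβ and 639.6 and 701 in WT SB505124 libraries, or 0.51 ± 0.10 (adjusted p = 0.000347) under TGFβ and 0.36 ± 0.10 (adjusted p = 0.00574) under SB505124. The SB505124 value of Irf2 did not pass without KO SB505124 replicate 1 (adjusted p = 0.0888) or WT SB505124 replicate 1 (0.0789).

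Stat2, the partner of IRF9, had 698 and 655 normalised counts in KO TGFβ, 689.6 and 675 in KO SB505124, 598 and 523 in WT TGFβ and 639 and 541 in WT SB505124 libraries, a log2 fold change of 0.27 ± 0.11 (adjusted p = 0.0319) under TGFβ and 0.22 ± 0.11 (adjusted p = 0.0916) under SB505124. This TGFβ value was lost without KO TGFβ replicate 1 (adjusted p = 0.172), KO TGFβ replicate 2 (0.0527) or WT TGFβ replicate 2 (0.221), or with TMM scaling, no filter on low values, no variance trend, DESeq2 or centring on chromosome medians (0.0533 to 0.0773). The SB505124 value of Stat2 passed without WT SB505124 replicate 1 (adjusted p = 0.044). Irf1, which drives class I genes after interferon gamma, ranged from 866 to 995 over all 8 libraries, and its 95% intervals were -0.19 to 0.17 and -0.16 to 0.20. Irf3, which is activated after RNA sensing, ranged from 1362 to 1748, with intervals of -0.24 to 0.15 and -0.30 to 0.09. The KO and WT libraries of Irf3 overlapped under both treatments, and those of Irf1 under TGFβ.

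The antiviral effectors divided. Lower in KO-labelled cells under both treatments were Ifit1, Isg15, Rsad2, Bst2 and Ifi35. Isg15, a ubiquitin-like modifier, had 5.78 and 6.15 normalised counts in KO TGFβ, 3.72 and 2.59 in KO SB505124, 26.3 and 17.1 in WT TGFβ and 17.2 and 13.02 in WT SB505124 libraries, or -1.68 ± 0.46 (adjusted p = 0.00379) under TGFβ and -1.96 ± 0.46 (adjusted p = 0.00128) under SB505124. Every KO-labelled library was below every WT one, on totals of 12 and 7 reads in the KO groups and 40 and 30 in the WT groups. Isg15 lies on chromosome 4, and its TGFβ value did not pass relative to that chromosome's median (log2 -0.96, adjusted p = 0.0761) or without WT TGFβ replicate 1 (adjusted p = 0.05). Ifit1, which binds viral RNA, had 12.5 and 15.4 normalised counts in KO TGFβ, 9.31 and 12.1 in KO SB505124, 27.4 and 25.1 in WT TGFβ and 28.4 and 30.04 in WT SB505124 libraries, or -0.87 ± 0.33 (adjusted p = 0.0293) and -1.38 ± 0.33 (adjusted p = 0.00168). The TGFβ value of Ifit1 was lost without KO TGFβ replicate 1 (adjusted p = 0.138), WT TGFβ replicate 1 (0.107) or WT TGFβ replicate 2 (0.0641), or with quantile normalisation (0.165) or DESeq2 (0.128). Rsad2 (viperin) had 5.78 and 5.13 normalised counts in KO TGFβ, 9.31 and 2.59 in KO SB505124, 18.9 and 11.4 in WT TGFβ and 19.3 and 25.03 in WT SB505124 libraries, or -1.29 ± 0.51 (adjusted p = 0.0339) and -1.92 ± 0.51 (adjusted p = 0.00343). It rested on 11 and 13 reads in the KO groups. For Rsad2, the TGFβ value was lost without KO TGFβ replicate 1 (adjusted p = 0.0755), KO TGFβ replicate 2 (0.102) or WT TGFβ replicate 1 (0.189), or with quantile normalisation, no filter on low values, no variance trend or DESeq2 (0.0558 to 0.159). Its SB505124 value was lost without KO SB505124 replicate 2 (adjusted p = 0.0762).

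Bst2 (tetherin), which holds budding virus at the cell surface, had 609 and 660.2 normalised counts in KO TGFβ, 368 and 541 in KO SB505124, 877 and 743 in WT TGFβ and 668 and 681 in WT SB505124 libraries. Its log2 fold change was -0.35 ± 0.14 (adjusted p = 0.0343) under TGFβ and -0.60 ± 0.14 (adjusted p = 0.00109) under SB505124. The TGFβ value of Bst2 was lost without KO TGFβ replicate 1 (adjusted p = 0.174), KO TGFβ replicate 2 (0.0549), WT TGFβ replicate 1 (0.198), WT SB505124 replicate 1 (0.0522) or WT SB505124 replicate 2 (0.0524), or with no filter on low values, no variance trend or a replicate block (0.0611 to 0.145). Ifi35 was steadier: it had 265 and 298 normalised counts in KO TGFβ, 254 and 268 in KO SB505124, 428 and 376 in WT TGFβ and 379 and 361 in WT SB505124 libraries, and -0.51 ± 0.12 (adjusted p = 0.00101) under TGFβ and -0.50 ± 0.12 (adjusted p = 0.00136) under SB505124. Oasl2, a relative of the oligoadenylate synthetases, had 17.3 and 7.18 normalised counts in KO TGFβ, 6.51 and 12.1 in KO SB505124, 63.2 and 49.1 in WT TGFβ and 15.2 and 21.03 in WT SB505124 libraries. The KO-labelled libraries were below the WT ones under both treatments, and the value passed under TGFβ (-2.21 ± 0.41, adjusted p = 0.000135) but not under SB505124 (-0.93 ± 0.41, adjusted p = 0.0628). Under SB505124 Oasl2 did pass without KO TGFβ replicate 1 (adjusted p = 0.0415), KO TGFβ replicate 2 (0.034) or KO SB505124 replicate 2 (0.0199), and with a fit of only the 2 groups (0.0357). Isg20, an exonuclease, had 1028 and 1139 normalised counts in KO TGFβ, 726 and 741 in KO SB505124, 1261 and 1366 in WT TGFβ and 783 and 827 in WT SB505124 libraries and was lower under TGFβ, at -0.28 ± 0.09 (adjusted p = 0.0121), and at -0.13 ± 0.09 (adjusted p = 0.221) under SB505124. For Isg20, the TGFβ value was lost without KO TGFβ replicate 1 (adjusted p = 0.142) or WT TGFβ replicate 2 (0.0872).

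A pair of effectors was higher instead. Ifit2, a neighbour and relative of Ifit1 on chromosome 19, had 1201 and 1003 normalised counts in KO TGFβ, 2417 and 2029 in KO SB505124, 459.98 and 574 in WT TGFβ and 1191 and 1248 in WT SB505124 libraries. All KO-labelled libraries exceeded the WT ones of the same treatment, by 1.09 ± 0.11 (adjusted p = 1.42e-07) under TGFβ and 0.86 ± 0.11 (adjusted p = 3.40e-06) under SB505124. Ifit3, which lies 7.11 kb from Ifit2, had 52.9 and 45.1 normalised counts in KO TGFβ, 101 and 90.7 in KO SB505124, 53.7 and 58.3 in WT TGFβ and 91.2 and 93.1 in WT SB505124 libraries, with log2 fold changes of -0.19 ± 0.19 (adjusted p = 0.405) and 0.05 ± 0.19 (adjusted p = 0.842). Within this family, then, Ifit1 was lower, Ifit2 higher and Ifit3 passed in neither comparison. Reads of Ifit3 may be divided with its near-identical copy Ifit3b. Cmpk2, a mitochondrial nucleotide kinase, had 37.5 and 57.4 normalised counts in KO TGFβ, 66.1 and 61.3 in KO SB505124, 14.7 and 20.6 in WT TGFβ and 22.3 and 40.1 in WT SB505124 libraries. It was higher in KO-labelled cells by 1.36 ± 0.31 (adjusted p = 0.000799) under TGFβ and 1.06 ± 0.31 (adjusted p = 0.00637) under SB505124, the SB505124 value not passing without WT SB505124 replicate 1 (adjusted p = 0.127). Cmpk2 and Rsad2 are divergent neighbours on chromosome 12, 12.8 kb apart, and differed in direction. Mx1, an antiviral GTPase, was below the level tested, with 11.6 and 17.4 normalised counts in KO TGFβ, 13.96 and 9.50 in KO SB505124, 5.26 and 10.3 in WT TGFβ and 3.04 and 8.01 in WT SB505124 libraries. Its KO-labelled libraries lay above the WT ones of the same treatment, on totals of 29 and 26 reads in the KO groups and 14 and 11 in the WT groups. This difference of Mx1 was not tested.

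DTX3L and PARP9 form a complex that adds ubiquitin and ADP-ribose. Dtx3l had 399 and 446 normalised counts in KO TGFβ, 529.6 and 489 in KO SB505124, 336 and 367 in WT TGFβ and 380.1 and 375 in WT SB505124 libraries, a log2 fold change of 0.26 ± 0.11 (adjusted p = 0.0436) under TGFβ and 0.43 ± 0.11 (adjusted p = 0.00263) under SB505124. The TGFβ value of Dtx3l was lost in 11 of the 20 alternatives, which were without KO TGFβ replicate 2 (adjusted p = 0.267), WT TGFβ replicate 1 (0.205), WT SB505124 replicate 1 (0.0598) or WT SB505124 replicate 2 (0.0597), or with TMM scaling, quantile normalisation, no filter on low values, edgeR, DESeq2, centring on chromosome medians or a fit of only the 2 groups (0.0521 to 0.141). Parp9 ranged from 392 to 474, with 0.09 ± 0.11 (adjusted p = 0.509) and 0.15 ± 0.11 (adjusted p = 0.246), and Parp14, another ADP-ribosyltransferase, had 223 and 212 normalised counts in KO TGFβ, 299 and 298 in KO SB505124, 203 and 186 in WT TGFβ and 245 and 273 in WT SB505124 libraries, with 0.16 ± 0.13 (adjusted p = 0.275) and 0.20 ± 0.13 (adjusted p = 0.176). Dtx3l and Parp9 share 458 exonic bases on opposite strands, which this kit cannot assign. The same limit holds for larger shares of the exonic bases of Tapbp (24.9%), Ifi35 (16.8%), Psmb8 (14.7%) and Tap2 (14.1%). These bases lie opposite annotated noncoding genes that have no value here. Irf7 shares a smaller part, 45 exonic bases (1.19%), with Phrf1 on the opposite strand. The mean of Phrf1 was 4120 normalised counts, beside 50.8 for Irf7, and the part of this overlap in the Irf7 values was not tested.

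The receptor genes differed in direction. Both chains for interferon gamma were higher in KO-labelled cells. Ifngr1, the ligand-binding chain, had 6148 and 5348 normalised counts in KO TGFβ, 5537 and 5869 in KO SB505124, 3499 and 3109 in WT TGFβ and 3601 and 3279 in WT SB505124 libraries. Its libraries did not overlap between genotypes, with log2 fold changes of 0.80 ± 0.09 (adjusted p = 2.92e-07) under TGFβ and 0.73 ± 0.09 (adjusted p = 1.05e-06) under SB505124. Ifngr2, the signalling chain, had 3362 and 3301 normalised counts in KO TGFβ, 2617 and 2586 in KO SB505124, 1947 and 2001 in WT TGFβ and 1762 and 1796 in WT SB505124 libraries, or 0.75 ± 0.07 (adjusted p = 6.91e-08) and 0.55 ± 0.07 (adjusted p = 4.58e-06). Of the type I interferon receptor, Ifnar2 had 958 and 904 normalised counts in KO TGFβ, 705 and 784 in KO SB505124, 1167 and 1084 in WT TGFβ and 937 and 879 in WT SB505124 libraries and was lower in KO-labelled cells, at log2 -0.27 ± 0.09 (adjusted p = 0.0152) and -0.29 ± 0.09 (adjusted p = 0.0127). The TGFβ value of Ifnar2 was lost without KO TGFβ replicate 2 (adjusted p = 0.104) or WT TGFβ replicate 1 (0.095), and the SB505124 value without KO SB505124 replicate 1 (0.135) or WT SB505124 replicate 1 (0.114). Ifnar1 ranged from 1919 to 2298, with 0.00 ± 0.09 (adjusted p = 0.972) and -0.14 ± 0.09 (adjusted p = 0.165). The SB505124 value of Ifnar1 passed with centring on chromosome medians (0.045). Ifnar2, Ifnar1 and Ifngr2 follow each other on chromosome 16, with 79.7 kb between Ifnar2 and Ifnar1 and 39.6 kb between Ifnar1 and Ifngr2, so Ifnar2 and Ifngr2 differed in direction within this cluster.

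Jak1, the kinase bound to both receptors, had 4169 and 3793 normalised counts in KO TGFβ, 4345 and 3864 in KO SB505124, 3956 and 4327 in WT TGFβ and 4768 and 5049 in WT SB505124 libraries. The genotypes overlapped under TGFβ (-0.06 ± 0.08, adjusted p = 0.575), and Jak1 was lower in KO-labelled cells under SB505124 (-0.26 ± 0.08, adjusted p = 0.0135). The SB505124 value of Jak1 was lost without KO SB505124 replicate 2 (adjusted p = 0.155) or WT SB505124 replicate 2 (0.119), or with no variance trend (0.0625). Jak1 lies on chromosome 4, and relative to the median of that chromosome it turned to higher in KO-labelled cells, at log2 0.66 under TGFβ (adjusted p = 3.89e-06) and 0.44 under SB505124 (adjusted p = 0.000249). The direction of Jak1 therefore depends on what it is compared with.

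Chromosomes 4 and 14 stood apart over all tested genes. The median log2 fold change of KO over WT was -0.68 under TGFβ and -0.69 under SB505124 for 755 genes of chromosome 4, and -0.58 and -0.62 for 403 genes of chromosome 14. Chromosome 18 had medians of 0.29 and 0.25, and the other chromosomes lay between -0.07 and 0.15. Chromosome 4 holds Isg15, Ddx58 and Jak1, and chromosome 14 holds Irf9; the other 31 tested genes lie elsewhere. H2-K1, H2-D1, Tap1, Tap2 and Tapbp lie on chromosome 17, whose medians were -0.07 and -0.05. What gave the shift of chromosomes 4 and 14, and its part in these 4 genes, was not tested.

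**Figure D3:**
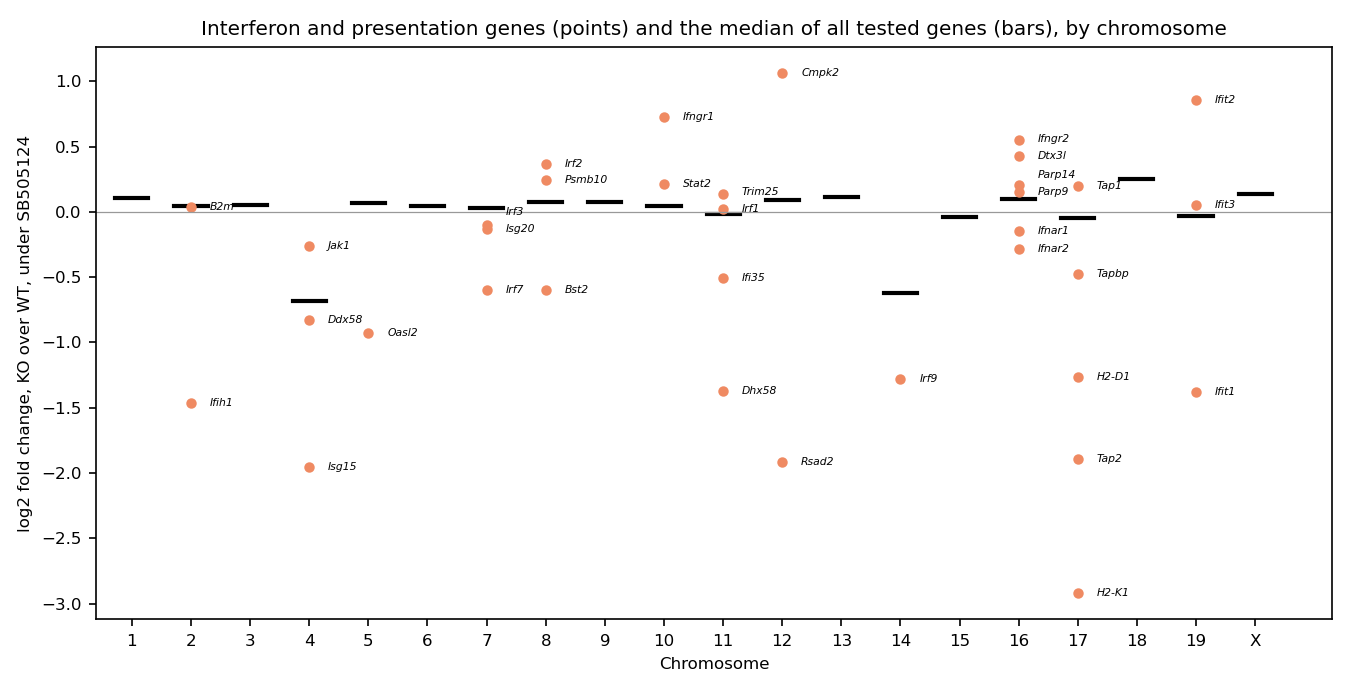
Log2 fold change of KO over WT under SB505124 (y axis) by chromosome (x axis); points are the 35 tested genes and black bars the median of all tested genes of the chromosome. The bars of chromosomes 4 and 14 lie at -0.69 and -0.62, near Ddx58, while H2-K1, Tap2 and H2-D1 lie far below the bar of chromosome 17.

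The treatment comparison asks what 1.5 h of TGFβ did against 6 h of SB505124 within each genotype. In KO-labelled cells 14 of the 35 genes passed, where 30.9% of all tested genes did; 8 were higher with TGFβ and 6 lower, where 15.1% of all genes were higher and 15.8% lower. In WT cells 13 passed, where 43.3% of all genes did; 6 were higher and 7 lower, where 20.2% of all genes were higher and 23.2% lower. The median log2 fold change was 0.08 in KO-labelled and -0.06 in WT cells, beside -0.02 and -0.01 for all tested genes. Isg20, B2m, H2-K1 and Ifnar2 were higher with TGFβ in both genotypes. Irf2, Ifit2, Ifit3, Ddx58, Parp14 and Trim25 were lower in both. Higher in both were thus 11.4% of the 35 genes, against 11.0% of all tested genes, and lower in both 17.1%, against 12.5%. No gene passed in opposite directions, where 0.192% of all genes did, and 18 passed in neither genotype (51.4%, against 49.4%). The comparisons in KO-labelled and WT cells share no library.

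**Figure D4:**
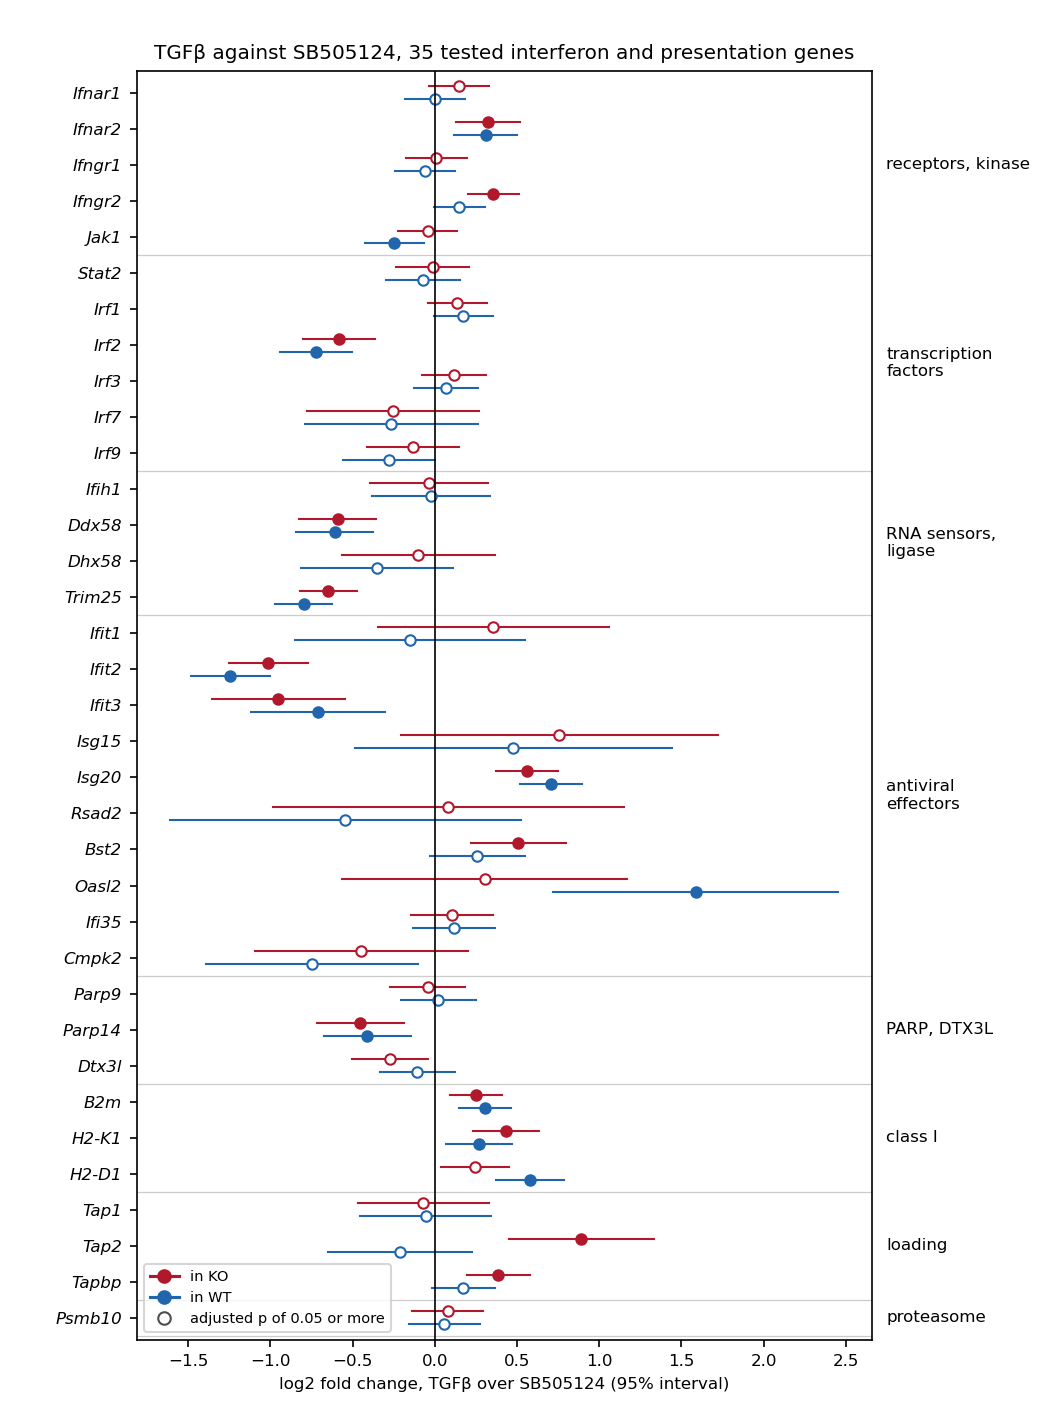
Log2 fold change of TGFβ over SB505124 (x axis) for the 35 tested genes (y axis, grouped by role), with 95% intervals from the fit, in KO-labelled and in WT cells; filled points passed at an adjusted p under 0.05. Ifit2 lies near -1.01 and -1.25, and Oasl2 lies at 0.30 in KO-labelled cells and 1.59 in WT cells.

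Ifit2 fell most of the 35 genes in both genotypes, and its neighbour Ifit3 fell too. Ifit2 was at 1201 and 1003 normalised counts with TGFβ and 2417 and 2029 with SB505124 in KO-labelled cells, and at 459.98 and 574 against 1191 and 1248 in WT cells. The groups did not overlap, and the log2 fold change was -1.01 ± 0.11 (adjusted p = 1.24e-06) in KO-labelled and -1.25 ± 0.11 (adjusted p = 9.13e-08) in WT cells. Ifit3 was at 52.9 and 45.1 with TGFβ and 101 and 90.7 with SB505124 in KO-labelled cells, and at 53.7 and 58.3 against 91.2 and 93.1 in WT cells, or -0.95 ± 0.19 (adjusted p = 0.000882) and -0.71 ± 0.19 (adjusted p = 0.00618). Ifit1, the third of the cluster, did not pass (0.36 ± 0.33, adjusted p = 0.455 and -0.15 ± 0.33, adjusted p = 0.748). Trim25, the RIG-I ligase, fell by 0.65 ± 0.08 (adjusted p = 5.35e-06) in KO-labelled and 0.80 ± 0.08 (adjusted p = 4.14e-07) in WT cells on the log2 scale, at 1813 and 1699 with TGFβ and 2919 and 2595 with SB505124 in the KO line, and 1405 and 1469 with TGFβ and 2465 and 2529 with SB505124 in WT. Its substrate Ddx58 was lower too: the log2 fold changes were -0.59 ± 0.11 (adjusted p = 0.000451) and -0.61 ± 0.11 (adjusted p = 0.000248). The other helicases, Ifih1 (-0.03 ± 0.17 and -0.02 ± 0.17) and Dhx58 (-0.10 ± 0.22 and -0.35 ± 0.22), did not pass.

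Of the transcription factors only Irf2 passed, at -0.58 ± 0.10 (adjusted p = 0.000259) in KO-labelled and -0.72 ± 0.10 (adjusted p = 2.12e-05) in WT cells. TGFβ libraries of Irf2 held 581 and 569.99 against 922 and 807 with SB505124 in KO-labelled cells, and 383 and 429 against 639.6 and 701 in WT cells, with no overlap. For Stat2, Irf1, Irf3, Irf7 and Irf9 the log2 fold changes ran from -0.28 (Irf9 in WT, adjusted p = 0.101) to 0.17 (Irf1 in WT, adjusted p = 0.113). Parp14 was lower with TGFβ in both genotypes, at -0.45 ± 0.13 (adjusted p = 0.00979) and -0.41 ± 0.13 (adjusted p = 0.0129). The KO value of Parp14 was lost without KO TGFβ replicate 2 (adjusted p = 0.0766) or KO SB505124 replicate 1 (0.0542), and the WT value without WT TGFβ replicate 2 (0.0772) or WT SB505124 replicate 2 (0.124).

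**Figure D5:**
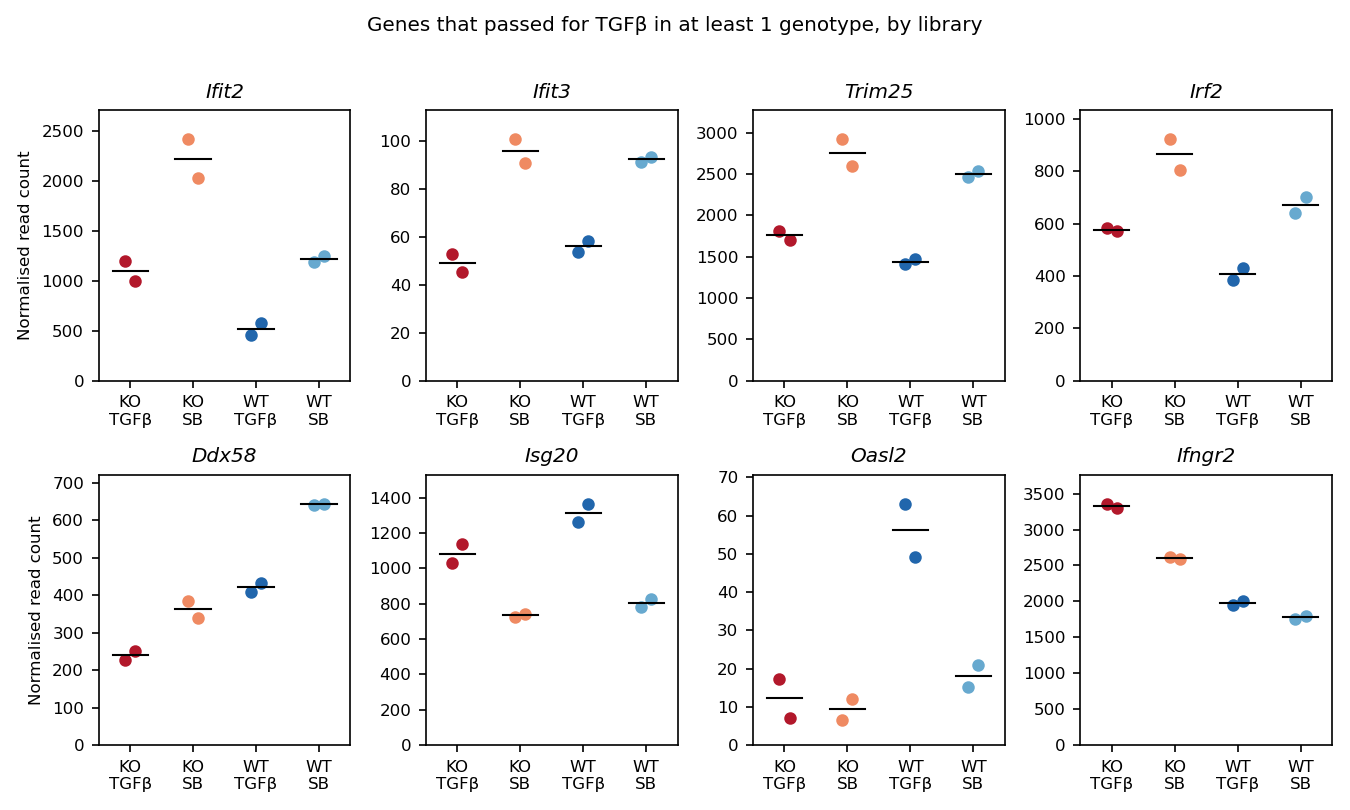
Normalised read count (y axis, from 0) of 8 genes that passed for TGFβ in at least 1 genotype, in each of the 8 libraries by group (x axis; SB is SB505124); points are libraries and bars the group means. Ifit2, Ifit3, Trim25, Irf2 and Ddx58 are lower with TGFβ in both genotypes, Isg20 is higher in both, and Oasl2 stands out in the WT TGFβ libraries.

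On the higher side, Isg20 had 1028 and 1139 normalised counts with TGFβ and 726 and 741 with SB505124 in KO-labelled cells, and 1261 and 1366 against 783 and 827 in WT cells. No TGFβ library of Isg20 was as low as an SB505124 one of its genotype, and the log2 fold change was 0.56 ± 0.09 (adjusted p = 8.93e-05) in KO-labelled and 0.71 ± 0.09 (adjusted p = 5.62e-06) in WT cells. The class I genes shifted upward by smaller amounts. B2m gave 0.25 ± 0.08 (adjusted p = 0.0175) and 0.31 ± 0.08 (adjusted p = 0.00314), H2-K1 0.43 ± 0.10 (adjusted p = 0.002) and 0.27 ± 0.10 (adjusted p = 0.0312), and H2-D1 0.24 ± 0.10 (adjusted p = 0.0695) and 0.58 ± 0.10 (adjusted p = 0.000133), so H2-D1 passed in WT cells. In every one of these comparisons the TGFβ libraries lay above the SB505124 ones. How many of all genes were ordered in this way was not counted, so nothing is read from the order alone. The KO value of B2m was lost without KO TGFβ replicate 1 (adjusted p = 0.0646), KO TGFβ replicate 2 (0.115) or KO SB505124 replicate 1 (0.164), and the WT value of H2-K1 without WT TGFβ replicate 1 (0.165), WT SB505124 replicate 1 (0.0761) or WT SB505124 replicate 2 (0.204). H2-D1 passed in KO-labelled cells without KO SB505124 replicate 2 (adjusted p = 0.0384).

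Of the peptide loading genes, Tap2 and Tapbp passed in KO-labelled cells, and Tap1 passed in neither genotype. Tap2 was at 55.8 and 66.6 with TGFβ and 26.99 and 38.9 with SB505124 in KO-labelled cells (0.89 ± 0.21, adjusted p = 0.00294), and at 111 and 102 with TGFβ and 125 and 121 with SB505124 in WT cells (-0.21 ± 0.21, adjusted p = 0.44). Tapbp gave 0.39 ± 0.09 (adjusted p = 0.0033) in KO-labelled and 0.17 ± 0.09 (adjusted p = 0.135) in WT cells. The KO value of Tap2 was lost without KO SB505124 replicate 1 (adjusted p = 0.0622), and that of Tapbp without KO SB505124 replicate 1 (0.08), or with no variance trend (0.051). The WT value of Tapbp passed without WT TGFβ replicate 2 (adjusted p = 0.0355). Bst2 rose in KO-labelled cells (0.51 ± 0.14, adjusted p = 0.00825) and was at 0.26 ± 0.14 (adjusted p = 0.137) in WT cells. The KO value of Bst2 was lost without KO TGFβ replicate 2 (adjusted p = 0.0822) or KO SB505124 replicate 1 (0.241), or with no filter on low values, no variance trend or a fit of only the 2 groups (0.0547 to 0.0941). Its WT value passed without KO SB505124 replicate 1 (adjusted p = 0.0423), KO SB505124 replicate 2 (0.0444) or WT TGFβ replicate 2 (0.0466).

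In KO-labelled cells the libraries of Oasl2 overlapped, at 17.3 and 7.18 normalised counts with TGFβ and 6.51 and 12.1 with SB505124 (0.30 ± 0.41, adjusted p = 0.621). In WT cells it had 63.2 and 49.1 with TGFβ and 15.2 and 21.03 with SB505124, a 3.1-fold higher mean (1.59 ± 0.41, adjusted p = 0.0046), which did not pass without WT SB505124 replicate 1 (adjusted p = 0.0532). Receptor chains moved little: Ifnar2 was higher with TGFβ in both genotypes, at 0.32 ± 0.09 (adjusted p = 0.0119) and 0.31 ± 0.09 (adjusted p = 0.0112), and Ifngr2 was higher in KO-labelled cells, at 0.36 ± 0.07 (adjusted p = 0.00118). In WT cells Ifngr2 was at 0.15 ± 0.07 (adjusted p = 0.115) and passed with centring on chromosome medians (0.0251). The KO value of Ifnar2 was lost without KO TGFβ replicate 1 (adjusted p = 0.0932) or KO SB505124 replicate 1 (0.148), and the WT value without WT TGFβ replicate 1 (0.0717) or WT SB505124 replicate 2 (0.107). Jak1 was at -0.04 ± 0.08 (adjusted p = 0.741) in KO-labelled cells and was lower with TGFβ in WT cells, at -0.25 ± 0.08 (adjusted p = 0.025). The WT value of Jak1 was lost without WT TGFβ replicate 1 (adjusted p = 0.139), WT SB505124 replicate 1 (0.0639) or WT SB505124 replicate 2 (0.179), or with no filter on low values (0.056) or no variance trend (0.0924). Cmpk2 passed in neither genotype, at -0.45 ± 0.31 (adjusted p = 0.296) in KO-labelled and -0.75 ± 0.31 (adjusted p = 0.0576) in WT cells. The WT value of Cmpk2 passed without WT TGFβ replicate 2 (adjusted p = 0.0279) or WT SB505124 replicate 1 (0.0177), and with quantile normalisation (0.0324) or a replicate block (0.046).

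Whether the 2 genotypes answered TGFβ differently was tested as the KO response minus the WT response. None of the 35 genes passed with limma (0 of 35; 3 at an unadjusted p under 0.05), where 2.82% of all tested genes did, 2.25% with a higher value and 0.568% with a lower one. With edgeR 1 gene passed, and with DESeq2 0 of the 31 given an adjusted p. The 3 genes were Tap2, H2-D1 and Oasl2. Tap2 had a difference of 1.10 ± 0.30 (adjusted p = 0.0517), with a 95% interval of 0.48 to 1.72: the transporter gene was higher with TGFβ in KO-labelled libraries and slightly lower in WT ones. Tap2 passed with edgeR (adjusted p = 0.0472), with a pseudocount of 8 (0.0373), relative to its chromosome's median (0.04997), and without KO SB505124 replicate 2 (0.0096) or WT TGFβ replicate 1 (0.0318). H2-D1 had -0.33 ± 0.14 (adjusted p = 0.233) and Oasl2 -1.28 ± 0.58 (adjusted p = 0.276). For genes such as Oasl2, H2-D1, Ifngr2 and Jak1, which passed for TGFβ in one genotype, the response is thus not shown to differ between genotypes. For Ifit2 the interval of the difference was -0.11 to 0.57, and for B2m -0.28 to 0.17.

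Other genes of the pathway were read from 5 lists. Between genotypes, 32.7% of all tested genes were higher and 30.2% lower under TGFβ, and 29.2% and 27.7% under SB505124. Between treatments, 15.1% were higher and 15.8% lower with TGFβ in KO-labelled cells, and 20.2% and 23.2% in WT cells. The counts of each list are to be read beside these shares, and nothing particular to a list is read from them. Of 76 other interferon-stimulated genes 54 were tested. Between genotypes, 19 were higher and 14 lower in KO-labelled cells under TGFβ, and 14 and 16 under SB505124, with medians of -0.10 and -0.02, beside the 0.01 of all tested genes. Ly6e, which codes for a surface protein that restricts some viruses, had 168 and 199.9 normalised counts in KO TGFβ, 154 and 166 in KO SB505124, 1456 and 1334 in WT TGFβ and 1164 and 1125 in WT SB505124 libraries, or -2.92 ± 0.11 (adjusted p = 7.90e-14) and -2.83 ± 0.11 (adjusted p = 1.16e-13), a difference of the size of that of H2-K1. On the other side, Irgm1, an immunity-related GTPase, had 3164 and 3153 normalised counts in KO TGFβ, 3732 and 3293 in KO SB505124, 1144 and 1305 in WT TGFβ and 1516 and 1550.02 in WT SB505124 libraries, or 1.37 ± 0.09 (adjusted p = 1.43e-10) and 1.19 ± 0.09 (adjusted p = 1.02e-09). Trim56, a ubiquitin ligase, was higher in KO-labelled cells by 1.65 ± 0.12 (adjusted p = 7.33e-10) under TGFβ and 1.28 ± 0.12 (adjusted p = 2.51e-08) under SB505124. Lgals9 (galectin-9) was higher by 1.24 ± 0.09 (adjusted p = 9.65e-10) and 1.35 ± 0.09 (adjusted p = 2.93e-10). Between treatments, 6 rose and 10 fell with TGFβ in KO-labelled cells, and 7 rose and 16 fell in WT cells (medians -0.12 and -0.20). Slfn2, a growth regulator of the Schlafen family, fell by 1.49 ± 0.16 (adjusted p = 6.21e-07) and 1.27 ± 0.16 (adjusted p = 4.58e-06) on the log2 scale. Cxcl10, an interferon-induced chemokine, rose by 1.58 ± 0.24 (adjusted p = 5.01e-05) in KO-labelled and 0.85 ± 0.24 (adjusted p = 0.00834) in WT cells. The WT value of Cxcl10 did not pass without WT TGFβ replicate 2 (adjusted p = 0.0663) or WT SB505124 replicate 1 (0.0716), or with DESeq2 (0.0527). Pml, the scaffold of nuclear bodies, fell by 0.40 ± 0.07 (adjusted p = 0.000335) and 0.39 ± 0.07 (adjusted p = 0.000307) on the log2 scale. Zc3hav1, which binds viral RNA, was at -0.22 ± 0.10 (adjusted p = 0.104) in KO-labelled cells and lower, at -0.66 ± 0.10 (adjusted p = 3.69e-05), in WT cells. The difference of responses between genotypes passed for 1 of the 54 genes, Helz2, and so not for Zc3hav1. Zc3hav1 in KO-labelled cells passed without KO SB505124 replicate 2 (adjusted p = 0.0317). Znfx1, a helicase-like RNA sensor, was lower in both, at -0.26 ± 0.08 (adjusted p = 0.0205) and -0.64 ± 0.08 (adjusted p = 6.72e-06). Znfx1 in KO-labelled cells did not pass without KO TGFβ replicate 1 (adjusted p = 0.0703), KO TGFβ replicate 2 (0.121) or KO SB505124 replicate 1 (0.188).

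Of 32 other class I presentation genes 25 were tested. In KO-labelled cells 5 were higher and 10 lower under TGFβ, and 6 and 11 under SB505124, with medians of -0.17 in both. H2-Q4, a nonclassical heavy chain whose reads may be divided with near-identical relatives, had 205 and 246 normalised counts in KO TGFβ, 125 and 175 in KO SB505124, 424 and 382 in WT TGFβ and 412 and 391 in WT SB505124 libraries, and was lower, at log2 -0.84 ± 0.15 (adjusted p = 8.71e-05) under TGFβ and -1.43 ± 0.15 (adjusted p = 1.64e-07) under SB505124. Psme2, part of the proteasome activator induced by interferon gamma, was lower, at -0.99 ± 0.09 (adjusted p = 4.28e-08) and -0.61 ± 0.09 (adjusted p = 2.07e-05). Psmb5, a standard catalytic subunit, was lower too, at -0.85 ± 0.11 (adjusted p = 1.72e-06) and -0.81 ± 0.11 (adjusted p = 3.45e-06), as was Sec61b, part of the translocon, at -0.91 ± 0.10 (adjusted p = 1.59e-07) and -0.72 ± 0.10 (adjusted p = 3.42e-06). Psme2 and Psmb5 lie on chromosome 14 and Sec61b on chromosome 4. Relative to the medians of those chromosomes, Psmb5 no longer passed under either treatment (adjusted p = 0.0955 and 0.207), nor did Sec61b (adjusted p = 0.0816 and 0.888). Psme2 did pass under TGFβ (adjusted p = 0.00264) but not under SB505124, where its value turned to 0.028 (adjusted p = 0.821). Erap1, the aminopeptidase that trims peptides, was higher in KO-labelled cells, at 0.73 ± 0.08 (adjusted p = 3.95e-07) and 0.32 ± 0.08 (adjusted p = 0.00293). With TGFβ 4 rose and 2 fell in KO-labelled cells, and 7 rose and 3 fell in WT cells (medians 0.08 and 0.05). H2-Q4 rose in KO-labelled cells (0.60 ± 0.15, adjusted p = 0.00491) and was at 0.01 ± 0.15 (adjusted p = 0.982) in WT cells. H2-Q4 in KO-labelled cells did not pass without KO TGFβ replicate 2 (adjusted p = 0.0847) or KO SB505124 replicate 1 (0.124), or with no variance trend (0.0508) or a fit of only the 2 groups (0.068). Rfx5, a class I and II promoter factor, was lower in both, at -0.52 ± 0.12 (adjusted p = 0.00189) and -0.34 ± 0.12 (adjusted p = 0.0252). The WT value of Rfx5 did not pass without WT TGFβ replicate 1 (adjusted p = 0.0792), WT TGFβ replicate 2 (0.0568), WT SB505124 replicate 1 (0.131) or WT SB505124 replicate 2 (0.0728), or with DESeq2 (0.0797) or a fit of only the 2 groups (0.052). The chaperone gene Hspa5 fell in both, at -0.35 ± 0.08 (adjusted p = 0.00296) and -0.45 ± 0.08 (adjusted p = 0.000245). Erap1 was at 0.03 ± 0.08 (adjusted p = 0.793) in KO-labelled and -0.38 ± 0.08 (adjusted p = 0.00123) in WT cells, and Psme2 at 0.04 ± 0.09 (adjusted p = 0.766) and 0.43 ± 0.09 (adjusted p = 0.00139). The difference between genotypes passed for neither (adjusted p = 0.067 and 0.144). It passed for 0 of the 25 genes of this list, so the response of H2-Q4 is not shown to differ between genotypes either. The class I activator Nlrc5 stayed at 2.79 to 8.11 normalised counts.

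Most MHC class II genes were near 0. Of 10 listed, 8 were in the table and 2 tested, with the class II activator Ciita at most 1.14 and the invariant chain Cd74 at most 8.01. One of the 2, H2-DMa, which helps load class II peptides, had 22.1 and 32.8 normalised counts in KO TGFβ, 18.6 and 25.05 in KO SB505124, 147 and 183 in WT TGFβ and 139 and 134 in WT SB505124 libraries. It was lower in KO-labelled cells, at log2 -2.56 ± 0.23 (adjusted p = 2.34e-08) and -2.60 ± 0.23 (adjusted p = 2.06e-08), and lies on chromosome 17, as H2-K1 does. Neither of the 2 passed for TGFβ in either genotype.

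Of 29 genes of nucleic acid sensing and interferon induction 26 were tested. In KO-labelled cells 10 were higher and 7 lower under TGFβ, and 9 and 10 under SB505124 (medians 0.06 and -0.09). Tlr4, the receptor for bacterial lipopolysaccharide, had 19.3 and 16.4 normalised counts in KO TGFβ, 45.6 and 42.3 in KO SB505124, 325 and 331 in WT TGFβ and 762 and 737 in WT SB505124 libraries, or -4.13 ± 0.16 (adjusted p = 9.31e-14) and -4.06 ± 0.16 (adjusted p = 1.12e-13); it lies on chromosome 4 and passed also relative to that chromosome's median. Mb21d1 (cGAS), the sensor of cytoplasmic DNA, had 33.7 and 22.6 normalised counts in KO TGFβ, 42.8 and 40.6 in KO SB505124, 199.99 and 225 in WT TGFβ and 261 and 268 in WT SB505124 libraries, or -2.90 ± 0.20 (adjusted p = 3.71e-10) and -2.64 ± 0.20 (adjusted p = 1.42e-09). Irf5, another IRF, had 6.74 and 11.3 normalised counts in KO TGFβ, 12.1 and 11.2 in KO SB505124, 129 and 115 in WT TGFβ and 96.3 and 104 in WT SB505124 libraries, or -3.66 ± 0.28 (adjusted p = 1.61e-09) and -2.998 ± 0.28 (adjusted p = 2.84e-08). With TGFβ 4 rose and 10 fell in KO-labelled cells, and 3 rose and 9 fell in WT cells (medians -0.14 and -0.12). Irf2bpl, related to IRF2-binding proteins, rose by 2.49 ± 0.09 (adjusted p = 1.25e-13) and 1.62 ± 0.09 (adjusted p = 8.82e-11), and Tlr2, a receptor for bacterial lipoproteins, by 1.94 ± 0.22 (adjusted p = 1.57e-06) and 1.71 ± 0.22 (adjusted p = 6.90e-06). Ticam1, the adaptor of TLR3 and TLR4, was lower, at -1.004 ± 0.12 (adjusted p = 2.31e-06) in KO-labelled and -0.84 ± 0.12 (adjusted p = 1.89e-05) in WT cells, as was the kinase gene Ikbke, at -0.59 ± 0.10 (adjusted p = 0.000106) and -0.78 ± 0.10 (adjusted p = 3.61e-06).

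Of 34 genes of interferons, receptor signalling and its inhibitors 27 were in the table and 23 tested. The interferon genes read were near 0: Ifng was at most 2.89, Ifne 2.03 and Ifnk 1.01 normalised counts in any library, and Ifnz was no higher than Ifnk. Between genotypes 12 were higher and 3 lower in KO-labelled cells under TGFβ, and 4 and 5 under SB505124 (medians 0.24 and 0.07). Socs2, a feedback inhibitor, was higher by 1.02 ± 0.10 (adjusted p = 4.86e-08) and 1.30 ± 0.10 (adjusted p = 1.73e-09), and Stat5b by 0.89 ± 0.09 (adjusted p = 1.23e-07) and 0.58 ± 0.09 (adjusted p = 2.51e-05). Ptpn6, a phosphatase that restrains JAK signalling, was lower, with 84.7 and 56.4 normalised counts in KO TGFβ, 67.9 and 88.96 in KO SB505124, 177 and 158 in WT TGFβ and 227 and 243 in WT SB505124 libraries, or -1.26 ± 0.19 (adjusted p = 1.59e-05) and -1.58 ± 0.19 (adjusted p = 1.16e-06). With TGFβ 4 rose and 4 fell in KO-labelled cells, and 3 rose and 10 fell in WT cells (medians -0.01 and -0.24). Cish, a feedback inhibitor of STAT5 signalling, had 2129 and 2122 normalised counts in KO TGFβ, 161 and 212 in KO SB505124, 2239 and 2069 in WT TGFβ and 259 and 237 in WT SB505124 libraries, the widest treatment difference among the list genes named here (3.52 ± 0.12, adjusted p = 2.02e-14 and 3.11 ± 0.12, adjusted p = 1.92e-13). Jak2, the kinase of the IFNGR2 chain, rose by 0.96 ± 0.09 (adjusted p = 6.66e-08) and 0.52 ± 0.09 (adjusted p = 0.000121). Ifnlr1, the receptor chain for type III interferons, was lower, at -0.58 ± 0.12 (adjusted p = 0.000754) in KO-labelled and -0.66 ± 0.12 (adjusted p = 0.000182) in WT cells. Pias1, which restrains STAT factors, was lower too, at -0.34 ± 0.10 (adjusted p = 0.01) and -0.58 ± 0.10 (adjusted p = 8.95e-05). Pias1 in KO-labelled cells did not pass without KO TGFβ replicate 2 (adjusted p = 0.122) or KO SB505124 replicate 1 (0.14).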

How the data were processed

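RNA was measured in 8 libraries of NMuMG cells, 2 in each of 4 groups given by the labels. The deposited values are a signal per gene, which the authors made by dividing read counts by a size factor per library. The build was mm10, and HTSeq 0.6.1p1, FastQC 0.11.5 and DESeq2 were among the tools, per the submitters' processing notes, while which aligner was run is not given in the sources used here. Libraries were made with an unstranded TruSeq kit, per the labels' protocols. Every value was a whole number of reads within 0.01 after undoing the scaling (100% of values), so reads were recovered, 25144204 to 32143113 per library.

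Genes with a mean of at least 10 (12498 of 18102) were transformed as log2(value + 1) and fitted with limma 3.58.1 (R 4.3.3): 4 group means, variance trend, 4 residual and 14.3 prior degrees of freedom. Benjamini-Hochberg adjustment ran over all tested genes of each contrast, at 0.05. Errors are the fit's SE. Coordinates and overlaps come from GENCODE M21 (GRCm38, the same assembly as mm10), and promoter sequences from RefSeq on GRCm38.p6; no window was used for Mx1, Tap2, Parp9, Parp14 and Dhx58.

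The 38 genes and the pathway lists were chosen with earlier results of these data known. All 38 are accounted for, and from each list up to 3 genes that passed with the smallest p per contrast are named and given for both genotypes or both treatments, plus low genes given only as levels. The 20 alternatives were TMM and quantile scaling, pseudocounts of 0.5 and 8, no filter, a mean of at least 50, no trend, edgeR 4.0.16 and DESeq2 1.42.0 on recovered reads (418 and 435 genes passed for the difference of responses), a replicate block, centring on each chromosome's median, each library left out, and only the 2 groups compared.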

Additional observations from a re-analysis of the deposited data

Results flagged for a closer look

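For 5 genes of the pathway lists, the response to TGFβ differed between the genotypes by the test of the difference itself (KO response minus WT response, limma, log2). By list, they were 1 of 54 other interferon-stimulated genes, 1 of 26 sensing genes, and 2 higher and 1 lower of 23 signalling genes. Of the class I and class II lists, 0 of 25 and 0 of 2 passed. Over all tested genes 2.82% passed, so nothing particular to the lists is read from the count. Irf2bpl had a difference of 0.87 (adjusted p = 0.000701): 5062 and 5078 normalised counts in KO TGFβ, 826 and 988 in KO SB505124, 4675 and 4115 in WT TGFβ and 1385 and 1469 in WT SB505124 libraries. It rose in both genotypes, and its difference was lost in 1 of 19 alternatives, without the variance trend (adjusted p = 0.0994).

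Helz2, an interferon-induced helicase, had a difference of 0.68 (adjusted p = 0.00614), with 1816 and 1603 normalised counts in KO TGFβ, 1453 and 1419.9 in KO SB505124, 1167 and 1061 in WT TGFβ and 1606 and 1395 in WT SB505124 libraries. The difference of Helz2 was lost in 4 of 19 alternatives, among them without KO TGFβ replicate 1 (adjusted p = 0.0732) or WT SB505124 replicate 1 (0.0942). The other 3 were less stable. Socs1, a feedback inhibitor of JAK kinases, had 1.63 (adjusted p = 0.0445), with 59.7 and 60.5 normalised counts in KO TGFβ, 17.7 and 38.003 in KO SB505124, 37.9 and 58.3 in WT TGFβ and 60.8 and 69.1 in WT SB505124 libraries, and lost the call in 14 of 19 alternatives, among them without KO TGFβ replicate 1 (adjusted p = 0.166), KO TGFβ replicate 2 (0.0841), KO SB505124 replicate 1 (0.135), WT TGFβ replicate 1 (0.0503), WT SB505124 replicate 1 (0.142) or WT SB505124 replicate 2 (0.179). Il15, a cytokine of lymphocytes, had -1.30 (adjusted p = 0.043), with 33.7 and 23.6 normalised counts in KO TGFβ, 61.4 and 50.1 in KO SB505124, 67.4 and 81.1 in WT TGFβ and 59.8 and 56.1 in WT SB505124 libraries, and lost it in 10 of 19, among them without KO TGFβ replicate 2 (adjusted p = 0.111), KO SB505124 replicate 1 (0.123), WT TGFβ replicate 2 (0.116), WT SB505124 replicate 1 (0.14) or WT SB505124 replicate 2 (0.158). Il6st, the shared receptor chain of the interleukin-6 family, had 0.50 (adjusted p = 0.046), with 2539.6 and 2141 normalised counts in KO TGFβ, 2453 and 2257 in KO SB505124, 2110.4 and 1917 in WT TGFβ and 2995 and 2744 in WT SB505124 libraries, and lost it in 8 of 19, among them without KO TGFβ replicate 1 (adjusted p = 0.334), KO SB505124 replicate 2 (0.0885), WT TGFβ replicate 2 (0.0946), WT SB505124 replicate 1 (0.281) or WT SB505124 replicate 2 (0.106).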

How the results depend on the processing

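Of 75 results that passed (5 comparisons of 35 genes), 44 passed in every alternative fitted and 31 were lost in at least 1. Of 100 that did not pass, 11 did in some alternative. Outside the runs that left out a library, the number of the 35 genes that passed was 12 to 14 for TGFβ in KO-labelled cells and in WT cells, 20 to 26 for KO against WT under TGFβ and 18 to 23 under SB505124. The number for the difference of responses was 1 in place of 0 with a pseudocount of 8, with edgeR and relative to chromosome medians, which is Tap2. Over all genes this difference gave 352 calls, but 134 with no filter on low values and 47 with no variance trend. Leaving out 1 library gave 8 to 15 genes for TGFβ in KO-labelled cells (8 without KO SB505124 replicate 1), 9 to 15 in WT cells, 0 to 1 for the difference, 17 to 26 for KO against WT under TGFβ (17 without WT TGFβ replicate 1) and 19 to 23 under SB505124. Over all genes these runs gave 2320 to 4410, 3684 to 5565, 141 to 1027, 6421 to 7938 and 5714 to 7477. Where a left-out library leaves 1 in its group, that library is assumed to vary like the others. Jak1 was the only gene of the 35 to turn direction while passing, at 0.66 (adjusted p = 3.89e-06) under TGFβ and 0.44 (adjusted p = 0.000249) under SB505124 relative to its chromosome's median; centring removes by construction what the chromosome's genes share. Among the list genes, Psme2 under SB505124 turned to 0.028 (adjusted p = 0.821) there.

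Replicate numbers are shared between groups. The correlation of the replicate differences was 0.102 between the KO groups and 0.198 between the WT groups, but -0.199 to -0.025 for the other pairs of groups, so the numbers were not taken to pair libraries. With a replicate block, 14, 14, 0, 25 and 23 genes passed in the same order of comparisons (all genes 3658, 5359, 252, 7835 and 7103). Depth limits Isg15, Rsad2, Ifit1 and Oasl2, which rest on 7 to 28 reads per KO group, and Psmb8, Psmb9 and Mx1, which were not tested.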
